A study of Mus musculus with 8 samples.

Results

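Oxidative phosphorylation genes were followed through the cell types of the prefrontal cortex (PFC) and striatum of mice carrying 1 disrupted copy of Setd1a (Setd1a+/-) and of their wild-type (WT) littermates. A gene was a member when its symbol began with mt- or with the name of a nuclear subunit family of complexes I to V (Ndufa, Ndufb, Ndufc, Ndufs, Ndufv, Sdha to Sdhd, Uqcr, Cox4 to Cox8, Atp5) and when at least 100 UMIs (unique molecular identifiers, each counting 1 captured mRNA molecule) were summed over all annotated cells. Of 31053 genes in the count matrices 106 carried such a symbol and 103 passed, of 13987 genes that passed the same UMI minimum. The 3 that did not pass were Cox8b with 29 UMIs, Cox8c with 0 and a second identifier of Atp5o with 2. The members were 13 mitochondrially encoded genes and 90 nuclear genes, which comprised 36 subunits and 8 assembly factors of complex I, 4 subunits of complex II, 8 of complex III, 18 of complex IV and 16 of complex V.

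Droplet-based 3′ single-cell RNA-seq had been made from 8 libraries, with 2 libraries for each genotype in each tissue and 2 animals pooled in each library. All animals were male C57BL/6N mice, given in the labels as 8 to 10 weeks old (the study's methods give an older age). The Setd1a+/- animals carried a frameshift made by CRISPR-Cas9 in every cell, from founders backcrossed to C57BL/6N, and the WT animals carried no engineered allele. The striatal libraries are called NAc (nucleus accumbens) in the labels and striatum in the study's text, and are called striatum here. The libraries were the replicates of every test, so n = 2 per genotype and tissue and n = 4 per tissue where genotypes were pooled. Setd1a, the histone H3 methyltransferase gene that was targeted (chr7:127776670-127800122, plus strand, mm10), stood over all annotated PFC cells at 8.45 and 11.2 CPM in WT against 5.59 and 9.33 CPM in Setd1a+/-. In the striatum Setd1a stood at 13.4 and 15.2 CPM in WT against 9.16 and 12.5 CPM in Setd1a+/-. CPM is UMIs scaled to a sum of 1000000 over all genes in the cells named, and the groups overlapped in the PFC and did not in the striatum. Between libraries of the same replicate number Setd1a was lower in Setd1a+/- than in WT throughout, in the PFC as in the striatum.

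Oxidative phosphorylation is the chain of 5 inner-membrane complexes by which mitochondria turn nutrients into ATP. Complex I (NADH dehydrogenase) and complex II (succinate dehydrogenase) feed electrons into the chain, complex III passes them to cytochrome c, complex IV (cytochrome c oxidase) gives them to oxygen, and complex V (ATP synthase) uses the resulting proton gradient. Complexes I, III, IV and V include proteins encoded by the mitochondrial genome, which is transcribed as long polycistronic RNAs, while all other subunits, and the whole of complex II, come from single nuclear genes that must be expressed in balance. Several nuclear subunits of complexes IV and V have paralogues known for tissue-restricted use, and neurons, above all fast-spiking interneurons, are known for a high demand for ATP.

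Nuclear respiratory factor 1 (NRF1) is a transcription factor known to bind promoters of nuclear respiratory genes at a GC-rich palindrome, so the promoter windows of the nuclear members were searched for its core letters. A RefSeq window of the 250 bases before the annotated start (GRCm38.p6) was matched for 75 of the 90 nuclear members. GCATGCGC, on either strand, stood in a window of 9 of the 75 members (12.0%) and of 2.56% of all 27025 genes with windows of that length. The ETS letters CCGGAAG, read by GABP, stood in a window of 14 members (18.7%) against 7.83% of all genes. These genes were taken whether expressed here or not. No set matched for expression or base composition was searched, so the shares are not read as particular to the members. AAGATGGC, the letters of YY1, stood in 1 member window (1.33%) against 1.83%, and TCAAGGTCA, the letters of the oestrogen-related receptors, in 1 (1.33%) against 0.422%. None of these 4 letter strings contains another. In each complex the window with the NRF1 letters whose gene had the highest mean level is printed 5′ to 3′ on the strand of its gene, ending at the base before the start, with the NRF1 letters in capitals: Ndufa6, a complex I subunit (chr15:82354292-82354541, minus strand), Sdhb, the iron-sulfur subunit of complex II (chr4:140961021-140961270, plus strand), Cox6a1, the general form of a complex IV subunit (chr5:115348959-115349208, minus strand, 2 overlapping matches), and Atp5l, a complex V subunit (chr9:44920743-44920992, minus strand). No window of a complex III member held these letters, most member windows lacked them, and the members with them did not all move one way (Atp5g2 was among them). A match describes the letters only and is not a measured binding site.
Ndufa6: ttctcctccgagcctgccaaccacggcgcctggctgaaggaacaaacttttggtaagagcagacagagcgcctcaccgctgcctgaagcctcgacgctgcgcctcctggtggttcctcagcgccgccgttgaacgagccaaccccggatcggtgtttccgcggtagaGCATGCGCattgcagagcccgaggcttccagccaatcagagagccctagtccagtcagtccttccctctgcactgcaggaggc
Sdhb: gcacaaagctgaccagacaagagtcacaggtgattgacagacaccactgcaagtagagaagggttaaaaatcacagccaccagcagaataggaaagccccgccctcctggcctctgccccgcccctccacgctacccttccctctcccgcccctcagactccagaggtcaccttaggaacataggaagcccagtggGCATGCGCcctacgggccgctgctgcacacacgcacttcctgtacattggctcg
Cox6a1: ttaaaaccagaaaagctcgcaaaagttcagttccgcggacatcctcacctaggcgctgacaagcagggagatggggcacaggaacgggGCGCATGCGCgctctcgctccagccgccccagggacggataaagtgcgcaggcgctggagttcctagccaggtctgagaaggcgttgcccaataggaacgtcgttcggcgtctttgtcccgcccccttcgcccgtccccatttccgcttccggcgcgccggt
Atp5l: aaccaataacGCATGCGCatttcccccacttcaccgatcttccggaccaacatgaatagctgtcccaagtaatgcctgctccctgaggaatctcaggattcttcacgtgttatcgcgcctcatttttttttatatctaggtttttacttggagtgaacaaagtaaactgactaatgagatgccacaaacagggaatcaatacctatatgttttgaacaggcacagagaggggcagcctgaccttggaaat

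The authors' annotation gave 8997 PFC cells and 14690 striatal cells. A library held 1508 to 4361 annotated cells and 5999666 to 13521114 UMIs in them, with a median of 2302.5 to 3042 UMIs per cell. The annotated PFC types were excitatory neurons (EN, 2775 cells), interneurons (IN, 298), astrocytes (Astro, 554), the vascular group labelled endothelial (Endo, 1562), microglia (Micro, 482), newly formed oligodendrocytes (NFO, 295), oligodendrocytes (Oligo, 1694) and oligodendrocyte precursors (OPC, 1337). The striatum had D1 and D2 medium spiny neurons (MSNs; 3904 and 2451 cells), IN (821), neural stem cells and neuroblasts (NB, 437), Astro (857), Endo (1998), Micro (271), NFO (165), Oligo (2345) and OPC (1441). Of the defining markers, 35 of 35 in the PFC and 42 of 44 in the striatum were highest in their own type, with Gad2 highest in D1 and Pvalb in NFO. Markers of red blood cells were at 13016 and 14109 CPM in PFC and striatal Endo. Striatal microglia carried 853 CPM of summed D1 and 889 CPM of summed D2 MSN markers, against 0.89 and 12.1 CPM in PFC microglia. Any pair of libraries shared 1 to 24 cell barcodes. Cells with over 10% mitochondrial UMIs had been removed by the authors before deposit of the annotation, which caps the mitochondrial shares below.

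The nuclear members took a larger share of all UMIs in neurons than in glia and vascular cells, whereas the mitochondrially encoded members did not. In the PFC the 90 nuclear members together made up 4.62% ± 0.27 (SD, n = 4 libraries) of UMIs in EN and 5.36% ± 0.34 in IN. The same share was 2.28% ± 0.24 in Micro, 2.51% ± 0.19 in Endo and 2.55% ± 0.33 in Oligo. Astro, OPC and NFO lay between them at 3.69% ± 0.22, 3.46% ± 0.26 and 3.40% ± 0.23. In IN the share was 5.14% and 5.74% in the WT libraries and 5.00% and 5.54% in the Setd1a+/- libraries, and in Micro it was 2.14%, 2.60%, 2.07% and 2.31% in the same order, so that IN were highest and Micro lowest in all 4 PFC libraries, 2.21 to 2.42 times apart. In the striatum IN were again highest in all 4 libraries, at 5.93% ± 0.42, followed by D2 at 5.54% ± 0.38 and D1 at 5.33% ± 0.38. NB (3.61% ± 0.23) stood with the glia rather than with the neurons, next to Astro at 3.61% ± 0.37, and Oligo (2.78% ± 0.22) and Endo (2.82% ± 0.18) were lowest. D2 was above D1 in each of the 4 libraries (5.29%, 5.75%, 5.16% and 5.97% against 5.11%, 5.49%, 4.94% and 5.80%), while the order of Oligo and Endo changed between libraries.

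**Figure D1:**
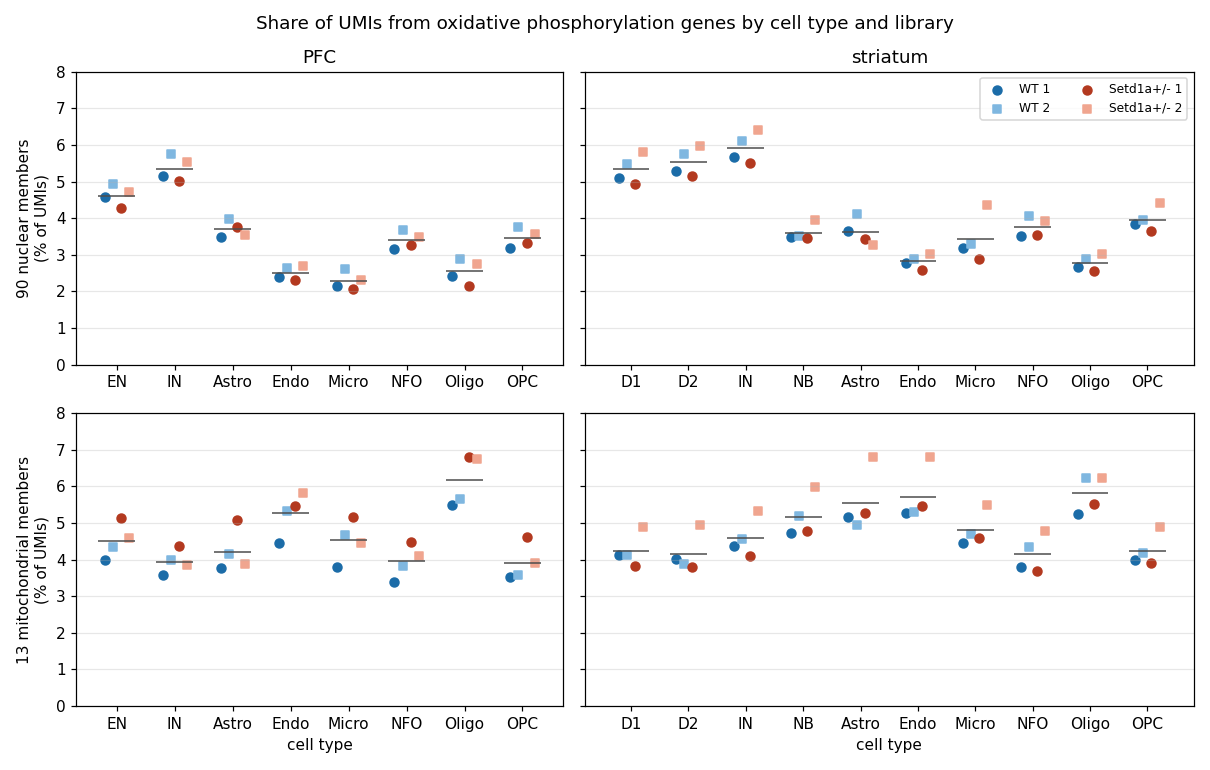
Percent of all UMIs of a cell type that came from the 90 nuclear members (top) and from the 13 mitochondrially encoded members (bottom), by cell type in the PFC and striatum. Each point is 1 library and each line the mean of the 4 libraries of a tissue. Nuclear shares of neurons lie above those of glia and vascular cells, with IN at 5.36% in the PFC and 5.93% in the striatum, and the mitochondrial share is highest in PFC Oligo at 6.18%.

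The mitochondrially encoded members ran in another order. Their share in the PFC was highest in Oligo, at 5.50% and 5.65% in WT and 6.80% and 6.76% in Setd1a+/-, and Oligo led in 4 of 4 PFC libraries, 1.56 to 1.76 times above the lowest type. Endo followed at 5.26% ± 0.57, and OPC (3.90% ± 0.50), IN (3.94% ± 0.33) and NFO (3.95% ± 0.46) were lowest and within 1 SD of each other. In the striatum Oligo (5.81% ± 0.50), Endo (5.71% ± 0.74) and Astro (5.55% ± 0.85) had the highest shares and could not be put in order beyond their spread. The mitochondrial UMIs per nuclear member UMI therefore ranged from 0.74 in PFC IN and 0.75 in D2 to 2.47 in PFC Oligo, with Endo at 2.10 and 2.02 in the PFC and striatum. Averaged over types, the neuronal minus the non-neuronal nuclear share was 2.01 ± 0.12 percentage points in the PFC and 2.21 ± 0.15 in the striatum, and every neuronal type was above every non-neuronal type in 4 of 4 libraries of each tissue (NB belonged to neither class). For the mitochondrial share the difference was -0.44 ± 0.14 and -0.72 ± 0.17 points, and the classes overlapped in every library. Its size depended on the cells and the averaging: it was -0.294 and -0.261 points in cells with at most 5% mitochondrial UMIs, and -0.283 in the PFC as a mean over cells. Barcodes with at most 100 UMIs were richer in mitochondrial UMIs than annotated cells, from which those above 10% had been removed. Such near-empty barcodes carried 10.7% to 24.7% mitochondrial UMIs in the PFC and 9.55% to 13.4% in the striatum, against 4.26% to 5.26% in the annotated cells of a library. The nuclear members took 4.00% to 6.22% of the UMIs of such barcodes. Whether these barcodes hold free RNA, and the part of free RNA in the shares, was not tested.

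Among the excitatory subtypes, which the authors named by layer (DL, deep; SL, superficial) and a marker, DL-Tshz2 had the lowest mitochondrial share in all 4 PFC libraries, at 2.78% and 3.25% in WT and 3.49% and 3.59% in Setd1a+/-. DL-Pou3f1, with only 62 cells, had the highest in all 4, at 4.74%, 5.33%, 6.43% and 7.89% in the same order. The other deep subtypes DL-Etv1, DL-Foxp2 and DL-Nnat lay at 4.86%, 4.56% and 4.93% and the superficial SL-Cux2 and SL-Myh7 at 4.27% and 4.32%, less than 1 SD from each other within each set. For the nuclear members DL-Tshz2 had the highest mean, 5.18% ± 0.34, and SL-Cux2 and DL-Etv1 the lowest, 4.42% ± 0.44 and 4.48% ± 0.30, but the order changed between libraries, with DL-Pou3f1 above DL-Tshz2 in WT 1 and Setd1a+/- 1 and DL-Etv1 below SL-Cux2 in WT 2 and Setd1a+/- 2.

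Neurons were then compared with non-neuronal cells gene by gene with edgeR's quasi-likelihood test on UMIs summed per type and library, with the library as a block. All types of a tissue were fitted together and shared an estimate of the spread. Values are log2 fold changes ± SE after TMM scaling, p-values are adjusted by Benjamini-Hochberg over all genes tested, and a gene was called at an adjusted p below 0.05 and a fold change above 1.5. The types had been named by the authors from clusters of the same counts, so the share of all genes called stands beside the members. In the PFC 33 of 87 nuclear members tested were called higher in neurons and 5 lower (59 and 3 with scaling to total UMIs in place of TMM), and 0 of 13 mitochondrially encoded members were called in either direction. Of all genes tested 58.2% were called with TMM, 32.6% higher and 25.7% lower. These were 5690 calls, 55.9% of them higher in neurons, and with total UMIs there were 5854 calls over all genes, 65.1% of them higher. At an adjusted p below 0.05 without the fold minimum, 74 nuclear members were higher and 6 lower, against 40.4% and 33.1% of all genes, and 1 mitochondrially encoded member was higher and 9 were lower. The median was 0.51 over nuclear members, -0.33 over mitochondrially encoded members and 0.04 over all genes. With total UMIs these medians were 0.72, -0.13 and 0.26, and 2 mitochondrially encoded members were higher and 6 lower without the fold minimum. The striatum gave 41 of 87 nuclear members called higher and 2 lower and 1 of 13 mitochondrially encoded members called lower, where 49.5% of all genes were called, 27.6% higher and 22% lower. Medians there were 0.55, -0.17 and 0.02, and that of the mitochondrially encoded members was -0.07 with total UMIs, beside 0.16 over all genes, and -0.26 with DESeq2, beside -0.08.

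**Figure D2:**
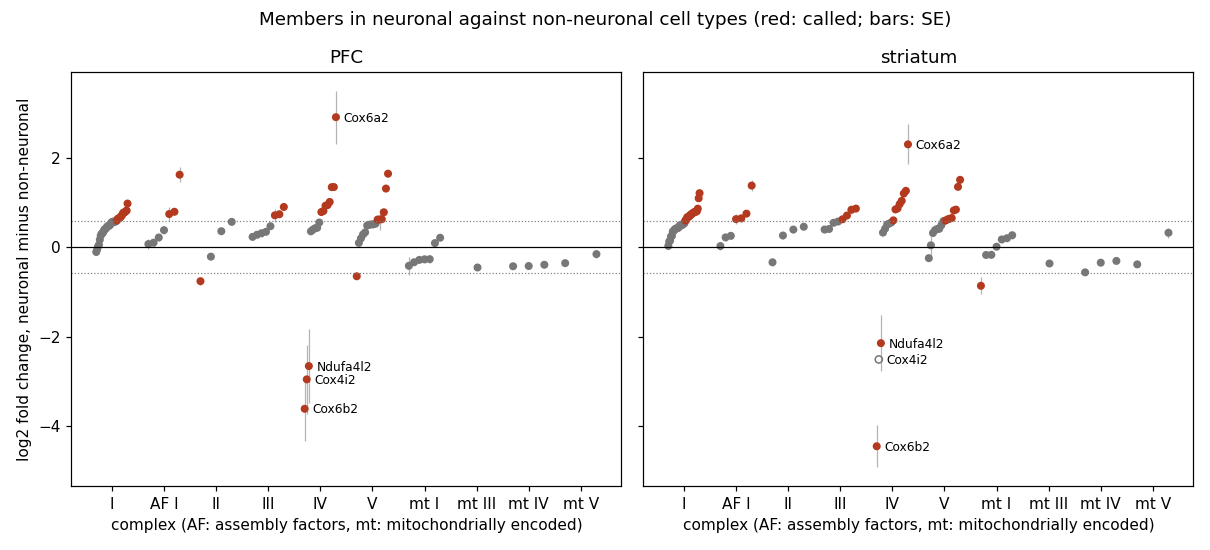
Log2 fold change of each tested member between neurons and non-neuronal cells in the PFC and striatum, grouped by complex (AF, assembly factors; mt, mitochondrially encoded). Each point is 1 gene with its SE, red points were called, grey points were not, dotted lines mark a fold of 1.5, and the open circle is Cox4i2, whose SE could not be estimated in the striatum. Nuclear subunits of complexes I, III, IV and V lie mostly above 0, and mitochondrially encoded members of complexes III and IV below it.

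CPM summed over the nuclear subunits of a complex were compared next, on the scale of total UMIs in place of TMM. On that scale the median log2 fold change over all genes was 0.26 in the PFC and 0.16 in the striatum. Each of the 5 complexes stood higher in neurons, and complex IV had the largest ratio in both tissues. The neuronal over non-neuronal ratio of summed CPM in the PFC was 1.90 ± 0.07 (SD, n = 4) for complex IV, 1.62 ± 0.05 for complex III, 1.62 ± 0.05 for complex V and 1.59 ± 0.05 for complex I. Complex II, the complex shared with the citric acid cycle, had the smallest ratio at 1.24 ± 0.07. The striatum gave 1.76 ± 0.02, 1.68 ± 0.01, 1.67 ± 0.04, 1.58 ± 0.02 and 1.31 ± 0.07 in the same order. With TMM the median log2 fold change of the 4 complex II genes was 0.08 in the PFC and 0.33 in the striatum. At an adjusted p below 0.05 without the fold minimum 2 were higher and 2 lower in the PFC, and 3 and 1 in the striatum. Subunits of complex IV summed to 16072 CPM in PFC IN and 6632 CPM in PFC Micro. The mitochondrially encoded subunits of complex I stood at 1.13 and 1.10 in the PFC and striatum, whereas those of complex IV stood at 0.85 and 0.79 and mt-Cytb of complex III at 0.84 in both. By gene and with TMM, the median of the 7 mitochondrially encoded complex I genes was -0.27 in the PFC and 0.01 in the striatum. Without the fold minimum 1 was higher and 4 lower in the PFC, and 3 and 3 in the striatum. By gene, 13 of 36 complex I subunits, 3 of 8 complex III, 8 of 16 complex IV and 6 of 16 complex V members tested were called higher in the PFC, and 17, 4, 8 and 8 in the striatum, to be read against the 32.6% and 27.6% of all genes higher, to which the PFC counts of complexes I, III and V are close. Of the 7 assembly factors of complex I tested, 3 in the PFC and 4 in the striatum were called higher, and of the 4 complex II members 0 in either tissue.

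Among the 3 most abundant complex I subunits, Ndufa5 (0.82 ± 0.06, adjusted p = 4.92e-17) and Ndufs5 (0.72 ± 0.06, adjusted p = 2.47e-15) were called higher in PFC neurons, while Ndufa13 passed the p but not the fold minimum at 0.47 ± 0.06. Ndufaf5, an assembly factor that modifies a subunit of complex I, was among the most different members at 1.62 ± 0.16 in the PFC and 1.38 ± 0.12 in the striatum. The succinate dehydrogenase genes did not move together. Sdha, the flavoprotein, and Sdhb were higher without passing the fold minimum (0.57 ± 0.07 and 0.36 ± 0.06 in the PFC), and Sdhc, a membrane anchor, was called lower in PFC neurons at -0.76 ± 0.09 with its highest level, 225 CPM, in Astro. The PFC call of Sdhc held in 9 of 10 alternative settings, and its weakest value among them was -0.54, under the fold minimum. In the striatum Sdhc was at -0.33 ± 0.08 and was not called. Of complex III, Uqcrq and Uqcr10 were called higher in both tissues (0.90 ± 0.06 and 0.74 ± 0.06 in the PFC), and Uqcr11 was at 0.35 ± 0.06 without a call. Of complex IV, Ndufa4 (1.35 ± 0.06, adjusted p = 4.53e-26), Cox7b (1.34 ± 0.07) and Cox8a (0.81 ± 0.06) were called higher in the PFC, and Cox4i1, the general form of subunit 4, was at 0.36 ± 0.06. The complex V subunits Atp5l, Atp5b and Atp5j were between 0.49 and 0.51 in the PFC, below the fold minimum, and Atp5l and Atp5b passed it in the striatum at 0.65 ± 0.06 and 0.60 ± 0.06.

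In PFC neurons most of the 13 mitochondrially encoded genes lay below 0, in every complex that has them. Those for cytochrome c oxidase were lower in neurons at -0.42 (mt-Co1), -0.42 (mt-Co2) and -0.39 (mt-Co3), as were mt-Cytb at -0.44 and mt-Atp6 at -0.35. Among the complex I genes mt-Nd1 and mt-Nd5 lay above 0, at 0.21 and 0.09, mt-Nd2, mt-Nd3, mt-Nd4l and mt-Nd4 lay between -0.33 and -0.27, and mt-Nd6, the member on the opposite mitochondrial strand, was at -0.41. mt-Atp8 was at -0.15, and none of the 13 passed the fold minimum, with DESeq2 also calling 0. In the striatum mt-Nd6 was called lower at -0.86 ± 0.19 (adjusted p = 6.43e-05), mt-Co1 was at -0.56, mt-Nd1, mt-Nd5, mt-Nd4l and mt-Atp8 were above 0, and mt-Nd3 was at 0.01 ± 0.08. The mt-Nd6 counts were small, 9.4, 10.6, 8.5 and 16.2 CPM in D1 against 15.4, 24.5, 14.6 and 69.2 CPM in Oligo for WT 1, WT 2, Setd1a+/- 1 and Setd1a+/- 2. The CPM of D1 and Oligo overlapped over libraries, with D1 below Oligo within each library.

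By the type with the highest mean level, 62 of 90 nuclear members peaked in IN in the PFC and 8 each in EN and Astro. In the striatum 49 peaked in IN, 21 in D2, 6 each in Astro and OPC and 2 in D1. The lowest type was Micro for 43, Endo for 22 and Oligo for 17 nuclear members in the PFC, and Endo for 38 and Oligo for 34 in the striatum. Of the 13 mitochondrially encoded members 8 peaked in PFC Oligo, and in the striatum 5 peaked in Endo and 3 in Oligo. A peak is the largest mean only, and of the nuclear members only Cox6a2 was called higher in IN than in EN. The shares of all genes with the same highest or lowest type are not given, so these counts cannot be read as particular to the members.

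A few paralogues broke from the common pattern, and Cox6a2 was the clearest. Cox6a2 (chr7:128205435-128206387, minus strand, mm10) encodes the form of complex IV subunit 6a best known from heart and skeletal muscle. In IN it stood at 123 and 237 CPM in WT against 118 and 185 CPM in Setd1a+/- in the PFC, and at 275 and 435 CPM in WT against 269 and 492 CPM in Setd1a+/- in the striatum. Both replicate 2 libraries were above both replicate 1 libraries in each tissue. In all other types the mean of Cox6a2 was at most 4.5 CPM, apart from Micro at 17.8 and 25.6 CPM, and PFC OPC and striatal NFO held 0 UMIs, which allows levels of up to 1.30 and 6.04 CPM (3 counts over the type's libraries, counting error only). A Cox6a2 UMI was present in 31.2% of PFC IN and 23.8% of striatal IN, against 0.2% of EN and 0.7% of D1, whose median depths were 6546 and 3167 UMIs. IN exceeded EN by a log2 fold change of 8.49 ± 0.29 (adjusted p = 3.81e-27) and MSNs by 7.38 ± 0.14 (adjusted p = 1.05e-42). The neuronal against non-neuronal value, 2.91 ± 0.59 in the PFC and 2.30 ± 0.45 in the striatum, is a fitted size over types that include OPC or NFO at 0 UMIs and is no bound, and the effect of the prior count of the fit on it was not tested.

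Within striatal IN, the level of Cox6a2 per cell was highest in cells with at least 3 UMIs of Pvalb, a marker of the fast-spiking class. Most Cox6a2 UMIs lay outside the cells placed by this limit, called Pvalb cells here. In the 26 cells with at least 3 Pvalb UMIs it was at 1972 and 2418 CPM in WT against 2066 and 3029 CPM in Setd1a+/-, and 92.3% of the cells held a UMI. Cells with at least 3 Sst UMIs (99 cells) were at 16.1 CPM, those with at least 3 Npy UMIs (98) at 43.3 CPM, and the 7 cells with at least 3 UMIs of Chat, a cholinergic marker, at 9.5 CPM. Cells with no Pvalb UMI (768) still averaged 234 CPM and held 980 of the 1632 Cox6a2 UMIs of striatal IN, against 414 in the Pvalb cells, and 149 of the 195 striatal IN with a Cox6a2 UMI were among them. The general form Cox6a1 was at 1679 CPM in the Pvalb cells and 1178 CPM in the Sst cells, so that the classes differed far less in it. In the PFC the 14 Pvalb cells gave 548, 591 and 489 CPM in the 3 libraries that had any (none came from Setd1a+/- 2), against 33.3 CPM in Sst cells and 137 CPM in cells with no Pvalb UMI. These classes were cut from single marker counts and hold few cells, so the values are descriptions. A cell with no Pvalb UMI need not lack Pvalb mRNA. The part of such cells in the Cox6a2 UMIs outside the Pvalb cells was not tested. By Pearson's r of log2(CPM + 1) over the 8 PFC types the genes most like Cox6a2 were Sp9 (0.966), Gjd2, Dlx2, Akain1 and Th (0.938), and over the 10 striatal types Nrn1 (0.966), Cabp7, Lhx8, 9330158H04Rik and Hs3st2 (0.946), all of them read from the same libraries.

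**Figure D3:**
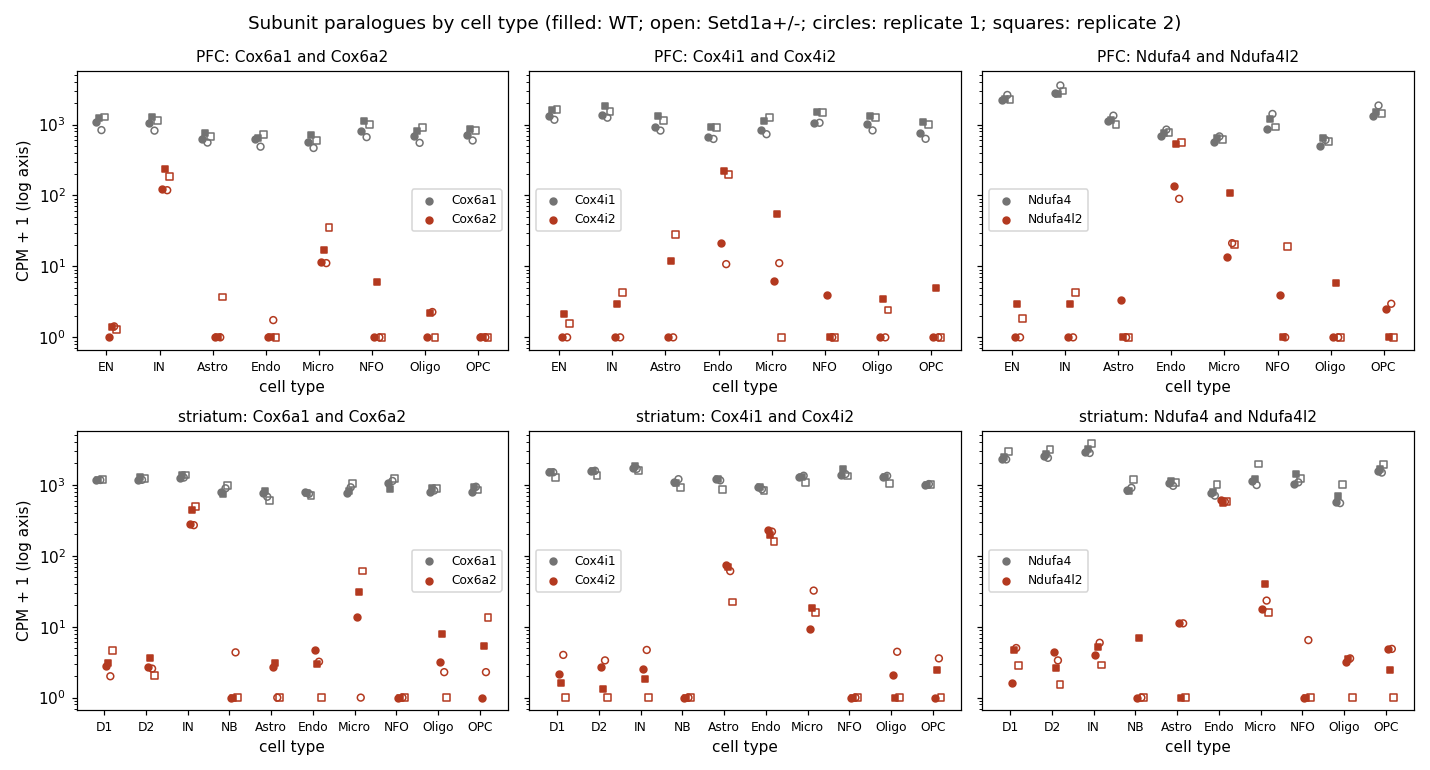
CPM (plus 1, log axis) of 3 pairs of paralogues by cell type in the PFC and striatum. Filled points are WT and open points Setd1a+/- libraries, with circles for replicate 1 and squares for replicate 2. Cox6a1, Cox4i1 and Ndufa4 are spread over all types, while Cox6a2 stands out in IN (368 CPM in the striatum) and Cox4i2 and Ndufa4l2 in Endo (200 and 580 CPM in the striatum).

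Cox4i2, the oxygen-responsive form of complex IV subunit 4 (chr2:152754173-152765037, plus strand), and Ndufa4l2, a paralogue of the complex IV subunit Ndufa4 known to be induced in hypoxia (chr10:127514967-127517154, plus strand), were vascular. In striatal Endo Cox4i2 was at 228 and 195 CPM in WT against 218 and 158 CPM in Setd1a+/-, and Ndufa4l2 at 617, 547, 574 and 581 CPM in the same order. The 4 striatal libraries were close to each other for both genes. In PFC Endo Cox4i2 was at 20.5 CPM in WT 1, 217 in WT 2, 9.8 in Setd1a+/- 1 and 198 in Setd1a+/- 2, and Ndufa4l2 at 136, 531, 88.6 and 555 CPM, with both replicate 1 libraries low. Cells of this group with more UMIs of mural markers than of endothelial markers (497 of 1998 in the striatum, 488 of 1562 in the PFC) had more of both genes, although 788 and 589 cells lay within 2-fold of this limit: striatal Cox4i2 was at 434 against 126 CPM and Ndufa4l2 at 1190 against 370 CPM. The PFC values of Ndufa4l2 were 320, 1130, 169 and 1095 CPM in the mural set and 60.2, 286, 40.2 and 250 CPM in the endothelial set, mural above endothelial in each library and replicate 1 low in both sets. Outside Endo, Cox4i2 was also seen in 12.5% of striatal Astro, at 73.8, 69.3, 59.7 and 21.2 CPM, against 0.3% of D1, at median depths of 1974 and 3167 UMIs. Both genes were called lower in PFC neurons, Cox4i2 at -2.95 ± 0.77 (adjusted p = 6.48e-04) and Ndufa4l2 at -2.65 ± 0.83 (adjusted p = 4.01e-03). The call of Cox4i2 was lost without PFC WT 1 (-2.31), and that of Ndufa4l2 without PFC WT 1 (-1.82) or without PFC WT 2 (-2.80). Striatal Ndufa4l2 was called at -2.14 ± 0.62, a call lost without striatum Setd1a+/- 1 (-1.45), and striatal Cox4i2 (-2.50) could not be tested, because its SE could not be estimated (NFO held 0 UMIs of it, and the cause was not tested). The sizes without a library kept their sign, and whether those calls were lost because an SE could not be estimated was not tested either. The genes most like Cox4i2 were Osmr (r = 0.990), Gch1, Tie1, Sh3d21 and Anxa1 over the 8 PFC types and Rassf9 (0.990), Adgre5, Ajuba, Oasl2 and Serpinb6b over the 10 striatal types.

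The 3 genes for the identical subunit c of ATP synthase, Atp5g1, Atp5g2 and Atp5g3, did not all take the same course. Atp5g3 was at 408, 376, 478 and 388 CPM in EN and at 85.2, 106, 77.8 and 82.8 CPM in PFC Oligo (WT 1, WT 2, Setd1a+/- 1, Setd1a+/- 2), with no overlap between the types. It was called higher in neurons at 1.64 ± 0.07 in the PFC (adjusted p = 3.46e-25) and 1.51 ± 0.06 in the striatum (adjusted p = 5.00e-29). Atp5g1 was called higher too, from 249 CPM in PFC Endo to 1157 CPM in PFC IN. Atp5g2 ran the other way in the PFC at -0.65 ± 0.07, with its highest levels in NFO (499 CPM) and in striatal NB (615 CPM). Its PFC call held in 9 of 10 alternative settings, and its weakest value among them was -0.44, under the fold minimum. In the striatum Atp5g2 was at -0.24 ± 0.07 and was not called. Cox6b2, the form of subunit 6b known from testis, was near 0 in projection neurons (0.2 CPM in EN, 0.7 in D1 and 0.1 in D2) and highest in striatal Astro at 68.7, 48.9, 45.1 and 42.5 CPM. It was called lower in neurons at -3.61 ± 0.71 in the PFC, a call lost without PFC Setd1a+/- 1 (-2.98), and at -4.44 ± 0.46 in the striatum. Whether its SE could be estimated without PFC Setd1a+/- 1 was not tested. The general form Cox6b1 was highest in IN at 1155 CPM in the PFC. Cox7a1 and Cox7b2, low-level paralogues, were both highest in Astro, at 14.0 and 10.2 CPM in the PFC, and were not tested. Cox7a2 (1.01 ± 0.06 in the PFC) was called higher in neurons, and Cox7a2l, a paralogue known for joining complexes III and IV, was highest in Micro in the PFC (720 CPM) and in IN in the striatum (523 CPM).

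Differences among neuron types were few. Between IN and EN 3 of 100 members tested were called, against 25.8% of all genes: Cox6a2 higher in IN (8.94% of all genes), and Ndufaf8, an assembly factor (-0.65 ± 0.12), and mt-Nd5 (-0.63 ± 0.14) lower. The latter calls depended on the scaling, since with DESeq2 Ndufaf8 was at -0.54 and mt-Nd5 at -0.51, both under the fold minimum, as they were with total UMIs. They were also lost without some libraries, Ndufaf8 without PFC Setd1a+/- 1 (-0.58) and mt-Nd5 without PFC WT 1 (-0.57) or PFC Setd1a+/- 2 (-0.55). At an adjusted p below 0.05 without the fold minimum 12 of 13 mitochondrially encoded members were lower in IN and 10 nuclear members higher, where 21.1% of all genes were lower and 11.1% higher. The 12 became 9 by DESeq2 and 6 with scaling to total UMIs, and the 10 became 36 and 31. Their median was -0.43 where the median of all genes was -0.14. The calls over all genes were 34.6% higher in IN, and 46.7% with DESeq2 and 47.5% with total UMIs. Between striatal IN and MSNs 3 members were called, all higher in IN, against 28.8% of all genes: Cox6a2, Cox6b2 (2.92 ± 0.66) and Atp5s, a coupling factor gene (0.73 ± 0.24). The calls over all genes were 55.7% higher in IN and 65.9% with total UMIs. Between D1 and D2 MSNs 0 members were called by edgeR and 0 by DESeq2, against 2.88% of all genes. Without the fold minimum DESeq2 had 9 nuclear members lower in D1, where 0.807% of all genes were lower, and edgeR 0, where 1.62% were. At an unadjusted p below 0.05 edgeR gave 5 members (5.00%, against 12.8% of all genes), Atp5e, Ndufs3, Atp5d, mt-Nd3 and Sdhd, each between -0.23 and -0.20. DESeq2 gave 35 of 100 at the same p, against 9.56% of all genes, so the tools differed on the members at these small sizes.

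Along the oligodendrocyte lineage the mitochondrially encoded members stood apart from the nuclear ones. All 13 were called higher in Oligo than in OPC in both tissues, against 20.2% of all genes called higher in the PFC (45.3% called in all) and 19.8% in the striatum (43.5% in all). In the PFC mt-Co1 was at 8275, 9319, 9815 and 10323 CPM in Oligo and 4331, 5001, 5627 and 5311 CPM in OPC, with no overlap, and NFO lay between at 5556, 6730, 6997 and 7010 CPM. On the TMM scale mt-Co1 was higher by 1.47 ± 0.09 (adjusted p = 4.56e-19), mt-Co2 by 1.49 ± 0.10, mt-Nd3 by 1.70 ± 0.15 and mt-Nd1 by 0.86 ± 0.09. In the striatum mt-Nd3 was at 1.44 ± 0.14 and mt-Co1 at 1.43 ± 0.10, closer than their SE, and mt-Nd1 was at 0.67 ± 0.10. The median over the 13 was 1.08 in the PFC and 1.05 in the striatum, that over nuclear members 0.11 in both, and that over all genes -0.05 and -0.03. The size depended on the scaling. With total UMIs in place of TMM the median of all genes moved to -0.64 and -0.70, and those of the nuclear members turned to -0.45 and -0.55. Those of the mitochondrially encoded members moved to 0.49 and 0.39 with 5 and 4 called higher, where 11.2% and 9.55% of all genes were called higher. The share of all calls that were higher in Oligo was then 19.5% and 17.3%, against 44.6% and 45.5%.

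**Figure D4:**
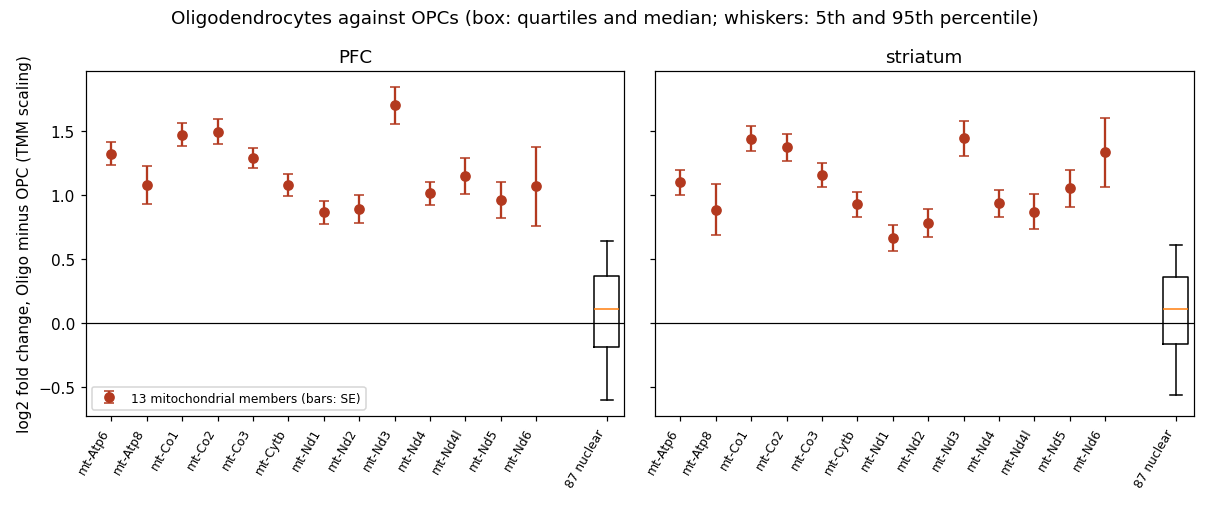
Log2 fold change between Oligo and OPC in the PFC and striatum after TMM scaling. Points are the 13 mitochondrially encoded members with their SE, and the box gives the quartiles and median of the 87 nuclear members tested, with whiskers at the 5th and 95th percentiles. All 13 points lie above the nuclear median of 0.11, from 0.86 (mt-Nd1) to 1.70 (mt-Nd3) in the PFC.

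After TMM scaling nuclear members were called in both directions between OPC and Oligo, but with total UMIs none was called higher and 36 were called lower in the PFC and 43 in the striatum, where 46.2% and 45.7% of all genes were lower. With TMM, 4 were called higher and 6 lower in PFC Oligo (25.1% of all genes were lower) and in the striatum 5 higher and 4 lower (23.7% lower). Without the fold minimum 28 of 87 were higher and 15 lower in the PFC, where 24.4% of all genes were higher and 27.8% lower. Higher in Oligo on the TMM scale were Cox4i1 (0.92 ± 0.10 in the PFC and 0.94 in the striatum), Ndufa3, a complex I subunit (0.83 ± 0.11 and 0.71), and in the PFC also Ndufaf3 and Ndufs7. In the striatum Sdha (0.68), Cox7a2 and Cox6a1 (0.61 each) completed the calls. Ndufa4 fell in both tissues: it was at 1315, 1512, 1852 and 1436 CPM in PFC OPC and 497, 643, 606 and 573 CPM in PFC Oligo, a log2 fold change of -0.83 ± 0.11 (adjusted p = 3.46e-09), and at -0.64 ± 0.12 in the striatum. The assembly factors Ndufaf4 (-0.93 ± 0.16) and Ndufaf1 (-0.78 ± 0.27), the subunits Ndufa12 and Ndufs3 and the paralogue Cox6b2 (-1.38 ± 0.39) were also lower in PFC Oligo, and Ndufaf1, Ndufaf5 and Cox6b2 in striatal Oligo. Several of these calls rested on 1 library: PFC Ndufaf1 was at -0.74 without Setd1a+/- 1 and -0.59 without Setd1a+/- 2, PFC Ndufa12 at -0.58 without WT 2, striatal Ndufaf1 at -0.69 without WT 1, and striatal Ndufaf5 and Cox6b2 at -0.58 and -0.33 without WT 2, none of them called.

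Between the tissues, 17 of 660 pairs of member and shared cell type were called, 16 nuclear and 1 mitochondrially encoded, all lower in the PFC, against 6.63% of 42759 pairs over all genes. Tissue and library preparation cannot be told apart. Micro held 12 of the 17, where 21.4% of all genes were called and 12.5% were lower in the PFC. The number of members tested in Micro is not given, and the 12 are not read as particular to the members. Among the 12 Cox5a, a nuclear subunit of complex IV, was at 95.7, 81.1, 70.9 and 43.9 CPM in PFC Micro and 197, 241, 161 and 299 CPM in striatal Micro (-1.43 ± 0.29, adjusted p = 6.34e-03), and Atp5g3 (-1.54 ± 0.31), Atp5k, Ndufa5 and Atp5g1 followed. The MSN markers in striatal Micro moved with these genes, and their part in the difference was not tested. In Astro, where 10.4% of all genes were called, Cox4i2 (-2.41 ± 0.56), Cox6b2 (-1.61 ± 0.44), Ndufaf3 (-0.90 ± 0.24) and mt-Co1 (-0.87 ± 0.22) were lower in the PFC. In IN, with 11.8% of all genes called, the 1 call was Cox6a2 at -1.17 ± 0.26 (adjusted p = 7.37e-03). Without PFC WT 1 the calls of Cox6b2 (-1.14), Ndufaf3 (-0.76) and mt-Co1 (-0.82) in Astro and of Atp5k (-1.22), Ndufa5 (-0.997) and Atp5g1 (-0.99) in Micro were lost, and each of these 6 was also lost without at least 1 other library. With the replicate number as a block the count rose to 47, and it fell to 5 without PFC WT 1 and to 7 without striatum WT 1 or without striatum WT 2. The shares of all gene pairs called under these settings are not given, so whether the members moved apart from other genes cannot be told.

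The question behind the libraries was what loss of a Setd1a copy does in each cell type, and no member was called between Setd1a+/- and WT in any type with all libraries, the low-count filter and no replicate block. Setd1a itself was not called by the same test where it was tested, at -0.49 ± 0.35 in EN and -0.52 ± 0.29 in D2. With n = 2 per genotype, the absence of a call does not show the absence of a difference. Other settings of edgeR did call members: mt-Atp8 was called lower in 1 PFC type and 2 subtypes with the replicate number as a block and in 3 and 3 without the low-count filter, and leaving out 1 library gave up to 13 calls in PFC types, 16 in subtypes and 2 in the striatum, as given below. With the block 0.132% of member pairs were called in PFC types and 0.349% in subtypes, against 0.0508% and 0.0246% of all pairs. Without the filter it was 0.366% and 0.49%, against 0.0525% and 0.0308%. With the filter and no block, 0 of 756 PFC pairs of member and type passed, against 0% of 51145 pairs over all genes. In the striatum, with a fold minimum of 2, it was 0 of 947 against 0.00544% of all pairs and, in the type with the most calls, 0.0397% of the genes tested in D2. In the excitatory subtypes it was 0 of 573 against 0%. DESeq2 also called 0 in each. At an unadjusted p below 0.05 there were 14, 5 and 7 pairs, and all 14 in the PFC were mitochondrially encoded, 14.1% of the 99 such pairs where 1.70% of all pairs passed. In the striatum 3 of 122 mitochondrially encoded pairs passed (2.46%), against 2.62% of all pairs. The pairs of a tissue repeat the same genes over types cut from the same libraries, so they are not independent. In the subtypes 6 of the 7 were mitochondrially encoded, 7.79% of the 77 such pairs against 1.60% of all pairs. The 3 lowest p in PFC types were those of mt-Atp8 in Endo, IN and NFO, all lower in Setd1a+/- (-2.32, -1.80 and -1.77). In the subtypes they were mt-Nd4l in SL-Cux2 (-1.02) and mt-Atp8 in DL-Etv1 and DL-Nnat (-2.27 and -1.95), also lower. The direction of the remaining pairs is not given here. Over all members the 14, 5 and 7 pairs were 1.85%, 0.528% and 1.22%.

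The mitochondrial share was higher in both Setd1a+/- libraries than in both WT libraries in 5 of 8 PFC types, EN, Endo, NFO, Oligo and OPC. In EN it was 3.99% and 4.34% in WT and 5.15% and 4.58% in Setd1a+/-, a difference of 0.70 percentage points, and in Oligo the difference was 1.20 points. Endo, NFO and OPC differed by 0.73, 0.68 and 0.71 points. The median log2 fold change of the mitochondrially encoded members was above 0 in 8 of 8 PFC types, from 0.07 to 0.26, while that of the nuclear members ran from -0.06 to 0.05. The PFC types and subtypes come from the same 4 libraries, so counts of types are not counts of replicates. Over all annotated PFC cells of a library the mitochondrial share was 4.26% and 4.43% in WT against 5.26% and 4.79% in Setd1a+/-. In the subtypes the shares of DL-Etv1, DL-Foxp2, DL-Nnat, DL-Pou3f1 and DL-Tshz2 did not overlap between genotypes (differences of 0.90, 0.87, 0.83, 2.12 and 0.53 points), whereas those of SL-Cux2 and SL-Myh7 did. DL-Pou3f1 had only 7 cells in WT 1 and 8 in Setd1a+/- 2. In the striatum Astro (5.15% and 4.96% in WT, 5.27% and 6.80% in Setd1a+/-) and Endo were the 2 of 10 types without overlap. The nuclear share did not overlap between genotypes in striatal Astro, at a difference of -0.53 points, and in DL-Nnat, at -0.51. Striatal Astro had only 31 cells in Setd1a+/- 2, against 258, 214 and 354 in WT 1, WT 2 and Setd1a+/- 1. Taken within the 2 replicate pairs, the mitochondrial share was higher in Setd1a+/- in both pairs of the same 5 PFC types and 5 subtypes, and in the striatum also of Micro and NB beside Astro and Endo. The nuclear share was lower in Setd1a+/- in both pairs of PFC EN (4.57% in WT and 4.27% in Setd1a+/- in pair 1, 4.92% and 4.71% in pair 2), IN, Micro and Oligo, of 5 of 7 subtypes (DL-Foxp2, DL-Nnat, DL-Tshz2, SL-Cux2 and SL-Myh7) and, of 10 striatal types, of Astro. No type or subtype had a higher nuclear share or a lower mitochondrial share in both pairs. As a share of the UMIs of nuclear genes, which leaves the mitochondrial UMIs out of the total, the nuclear members were lower in both pairs of the same 4 PFC types, of 3 subtypes (DL-Foxp2, DL-Nnat and SL-Myh7) and of striatal Astro. With 2 libraries against 2 an exact two-sided permutation test of such a share cannot go below p = 0.333, so none was used. Near-empty barcodes carried 22.7% and 10.7% mitochondrial UMIs in PFC WT and 24.7% and 17.0% in PFC Setd1a+/-, and their part in these shares was not tested.

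Single mitochondrially encoded genes did not all follow that shift. mt-Atp8, a small subunit of complex V (chrM:7766-7969, plus strand), was at 178 and 54.6 CPM in WT EN and 19.2 and 47.7 CPM in Setd1a+/- EN, and at 179, 71.6, 17.3 and 38.6 CPM in PFC Endo. WT 1 was far above the rest and Setd1a+/- 1 lowest in both, and the genotypes did not overlap. Its log2 fold change was -2.32 ± 0.54 in Endo (adjusted p = 0.999 by edgeR), -1.80 ± 0.59 in IN and -1.77 ± 0.64 in NFO. Without WT 1 it was -1.47 in Endo, -0.89 in IN and -1.09 in DL-Etv1 (-2.27 with all libraries), and the gene was not tested in NFO, where it was -0.93 without Setd1a+/- 1. Without Setd1a+/- 2 it was -2.89 in Endo, -2.35 in IN, -2.50 in NFO and -2.95 in DL-Etv1. With the replicate number as a block mt-Atp8 was called in PFC Endo (-2.46 ± 0.33, adjusted p = 1.12e-06), DL-Etv1 (-2.06 ± 0.27, adjusted p = 6.14e-10) and SL-Cux2 (-1.40 ± 0.30, adjusted p = 0.00846). Without the filter on low counts it was called in EN, Endo and Oligo and in 3 deep subtypes. In the striatum mt-Atp8 was at 60.6, 36.8, 59.9 and 19.1 CPM in D1, with overlap between genotypes. mt-Nd4l, a complex I gene (chrM:9877-10173), had the lowest p among excitatory subtypes, with -1.02 ± 0.28 in SL-Cux2 and an adjusted p of 1 by edgeR. mt-Atp8 overlaps mt-Atp6 (chrM:7927-8607) and mt-Nd4l overlaps mt-Nd4 on the same strand, and reads that lie in both genes of such a pair count for neither, so the levels of both are uncertain. The mt-Atp8 level of near-empty barcodes was also highest in PFC WT 1, at 516 CPM against 84.2 to 105 in the other PFC libraries, and its part in the difference was not tested.

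Other low p-values belonged to Cox5a (chr9:57521274-57532426, plus strand), a matrix-side subunit of complex IV, in the striatum. It was at 354 and 344 CPM in WT Astro and 187 and 212 CPM in Setd1a+/- Astro, a log2 fold change of -0.90 ± 0.29 (adjusted p = 0.919 by edgeR), and at -0.77 ± 0.29 in striatal Oligo. The Astro value of Setd1a+/- 2 came from 31 cells. The same gene in PFC EN was at 346 and 220 CPM in WT against 510 and 167 CPM in Setd1a+/-, where the genotypes overlapped. Leaving out 1 library changed the genotype counts most without PFC Setd1a+/- 2: 13 pairs were then called in PFC types (1.70%, against 0.212% of all gene pairs) and 16 in subtypes (2.79%, against 0.624%), all of them lower in the remaining Setd1a+/- library, among them Ndufa3 in IN, Astro, Endo and NFO and Uqcr11 in IN, Astro and Endo. Without striatum Setd1a+/- 1 there were 2 calls in the striatum (0.211%, against 0.518% of all pairs). A test of whether the genotype difference differed between tissues called 0 of 669 pairs by edgeR, with 6 at an unadjusted p below 0.05 (0.897%, against 2.21% of 49915 pairs over all genes), and 0 by DESeq2. Of the 88 mitochondrially encoded pairs 4 were among the 6 (4.55%).

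**Figure D5:**
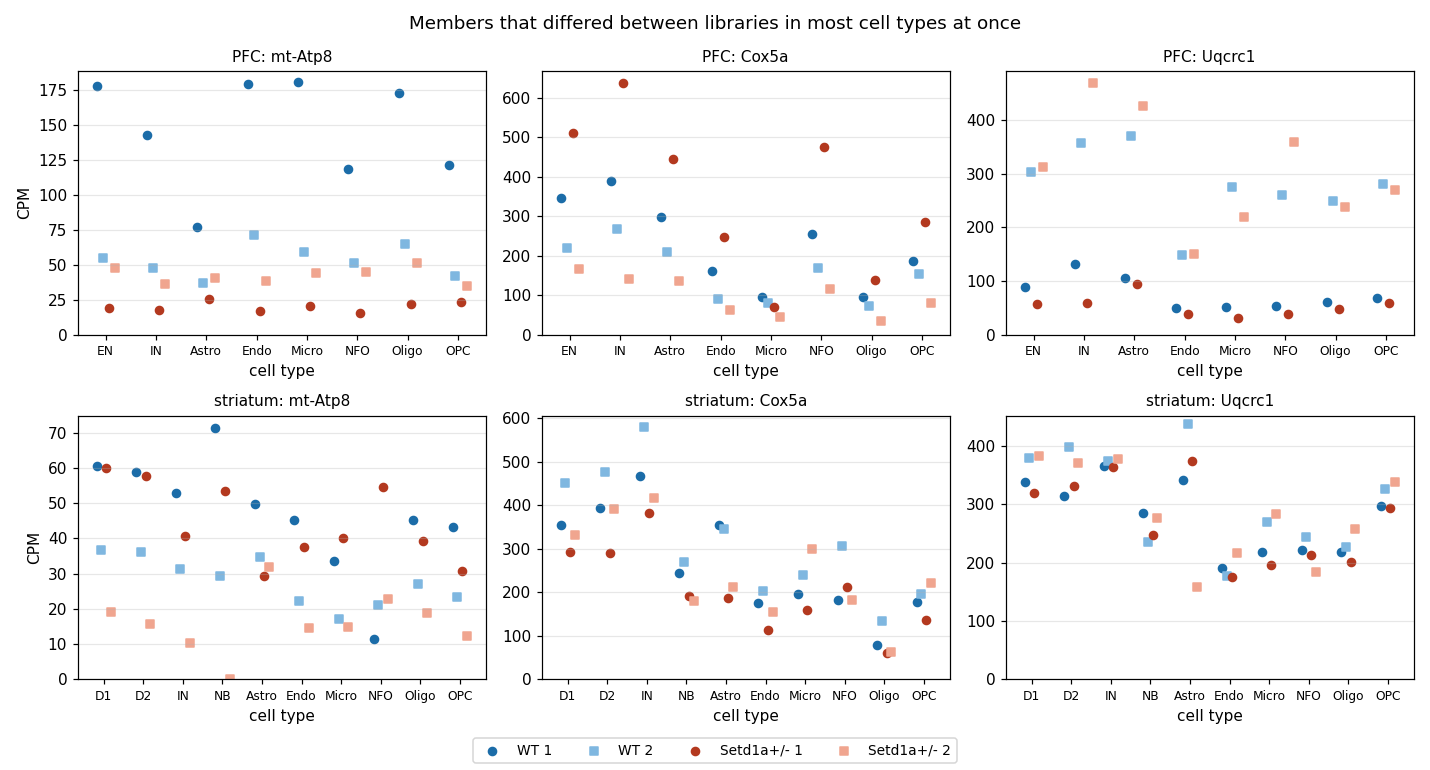
CPM of mt-Atp8, Cox5a and Uqcrc1 in each cell type, with 1 point per library. In PFC EN the libraries of a genotype lie apart for all 3 genes, as for Uqcrc1 at 88.8, 303, 57.1 and 312 CPM for WT 1, WT 2, Setd1a+/- 1 and Setd1a+/- 2.

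Replicates of the PFC differed more than genotypes for several nuclear members. Uqcrc1, a core subunit of complex III (chr9:108936633-108949623, plus strand), was at 88.8 and 303 CPM in WT EN and 57.1 and 312 CPM in Setd1a+/- EN, both replicate 1 libraries low. It was at least 4-fold lower in both replicate 1 than in both replicate 2 libraries in PFC Micro (51.4, 276, 30.4 and 220 CPM), NFO and OPC, and Cox4i2 was 9.63-fold so in PFC Endo. In PFC types 0.312% to 0.687% of genes with at least 50 UMIs differed in this way and in striatal types 0.012% to 0.348%. In the striatum no member did, and Uqcrc1 in D1 was at 339, 379, 320 and 383 CPM. Ndufa3 (347, 628, 134 and 574 CPM in EN) and Uqcr11 (711, 1233, 367 and 1185 CPM in EN) were low in Setd1a+/- 1 and in WT 1 of the PFC as well.

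Genes of neighbouring mitochondrial pathways are given by count from lists assembled for the purpose, to be read against the 32.6% of all genes higher and 25.7% lower in PFC neurons and 27.6% and 22% in striatal neurons. Of 38 tested genes of oxidative phosphorylation that the symbol rule leaves out (further assembly factors, cytochrome c and regulators), 14 were called higher and 2 lower in PFC neurons, led by Atpif1, an inhibitor of ATP synthase (1.77 ± 0.07), and Ttc19, a complex III assembly factor (1.72 ± 0.18). In the striatum it was 17 and 2 of 42. Of 18 citric acid cycle genes 7 were higher and 2 lower in PFC neurons, and 6 and 2 in the striatum. There the 2 forms of succinyl-CoA ligase parted: Sucla2, the ATP-forming subunit, was higher (1.39 ± 0.10 in the PFC) and Suclg2, the GTP-forming subunit, lower (-4.78 ± 0.32), and Idh2 was lower at -3.17 ± 0.18. Of 14 regulators of mitochondrial biogenesis 2 were higher and 4 lower in PFC neurons, with Ppargc1a, the coactivator known as PGC-1alpha, higher at 2.51 ± 0.18 and Gabpb2 and Gabpa, subunits of GABP, lower at -1.98 ± 0.23 and -1.77 ± 0.31. In the striatum 5 of 18 were higher and 3 lower, with Ppargc1a at 1.13 ± 0.17 and its relative Ppargc1b at 2.43 ± 0.20, and the list's median was -0.33 in the PFC and 0.03 in the striatum. Ppargc1a was lower in Oligo than in OPC at -4.28 ± 0.41, the comparison in which the mitochondrially encoded members were higher. Of 18 mitochondrial carriers and channels 8 were higher and 2 lower in PFC neurons, led by Ckmt1, mitochondrial creatine kinase (4.64), and 9 and 0 in striatal neurons. Of 16 genes of the response to dissociation 3 were higher and 6 lower in PFC neurons and 2 and 9 in striatal neurons, with medians of -0.39 and -1.16. In Oligo against OPC 4 were higher and 1 lower in the PFC and 9 and 1 in the striatum (20.2% and 19.8% of all genes were higher), Fos at 2.01 and 3.51. In IN against EN 2 of the 16 were higher and 8 lower (median -0.78). In striatal IN against MSNs 3 were higher and 4 lower (median 0.19). Of the calls over all genes 34.6% and 55.7% were higher in IN, which are shares of calls and not of genes tested. The shares of all genes called are given above with the differences among neuron types. The part of the dissociation genes in the neuronal, IN and Oligo differences of the members was not tested.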

How the data were processed

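Single-cell RNA-seq libraries (10x 3′) of the PFC and striatum were used as 8 count matrices with the authors' cell annotation. The authors deposited UMI counts per gene and barcode, made with Cell Ranger 3.0.2 on mm10 per the submitters' processing notes. The authors also deposited a percent of mitochondrial UMIs per cell, from Seurat 3.2.0, and kept cells with at least 800 genes and at most 10% of such UMIs, which truncates the mitochondrial share of every type. Types and subtypes are theirs, from clusters of integrated cells merged by hand. No removal of doublets is stated in the sources used here and none was made here.

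Counts were summed per library and type. Genotypes, tissues and types were compared with edgeR 4.0.16 (quasi-likelihood, TMM, minimum count 10, at least 10 cells in every library, which left out the genotype test of DL-Pou3f1) and DESeq2 1.42.0 as an alternative, in R 4.3.3, each across all genes, with Benjamini-Hochberg adjustment. A call needed an adjusted p below 0.05 and a fold above 1.5 (2 for striatal genotypes, and no fold for genotype by tissue). Fits of types had the library as a block. The main edgeR setting and DESeq2 were tested on simulated counts for genotype in PFC EN and OPC and for D1 against D2 MSNs. The other comparisons and settings were not tested in this way. Pooled animals were not separable, so p-values of genotype and tissue tests measure the spread between libraries. In the fits of types, p-values measure the spread left after the library block, shared over all types of a tissue.

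Per the study's methods each replicate held a WT and a Setd1a+/- sample, so the replicate number pairs libraries. Deviations of libraries with the same number correlated over genes at 0.109 to 0.759 in the PFC and 0.105 to 0.632 in the striatum.

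The members, the lists and the tests were chosen with earlier results of these data known. Genes named were the 13 mitochondrially encoded members, the 3 most abundant nuclear members of each complex, the paralogue groups, the 5 largest calls in each direction per comparison, in genotype comparisons the calls or the 3 lowest p, members that differed at least 4-fold between replicates, Setd1a, up to 4 called genes per list, and the 5 genes most like Cox6a2 and Cox4i2. Ndufaf8, Ndufa3 and Uqcr11 as library-dependent members, and the 5 members with a low p between D1 and D2, were named after their values were seen. Alternatives were other scalings, no low-count filter, a replicate block, other share definitions and leaving out each library.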

Additional observations from a re-analysis of the deposited data

Results flagged for a closer look

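In 5 pairs of cell type and member, among the members with the lowest p in the genotype comparisons, both Setd1a+/- libraries lay on one side of both WT libraries in the PFC and on the opposite side in the striatum. The difference of the genotype differences in CPM, PFC minus striatum, was -42.4 for Ndufaf8 in IN, -139.4 for Ndufaf8 in Astro and -49.1 for Ndufaf8 in OPC. It was -77.3 for mt-Atp8 in NFO and -105.4 for mt-Nd4l in Astro. Ndufaf8 in Astro was at 94.1 and 128 CPM in WT against 42.7 and 70.5 CPM in Setd1a+/- in the PFC, and at 144 and 116 against 164 and 266 CPM in the striatum. mt-Nd4l in Astro was at 91.7 and 80.6 against 25.6 and 48.8 CPM in the PFC and at 101 and 83.6 against 117 and 180 CPM in the striatum. The edgeR test of the difference between tissues gave -1.57 ± 0.57 for mt-Nd4l in Astro and -1.40 ± 0.53 for Ndufaf8 in Astro, both with an adjusted p of 1, and none of the 5 passed. The striatal Astro value of Setd1a+/- 2 comes from 31 cells. Over all members with at least 20 CPM in both tissues, chosen as a limit after the data were seen, 18 of 657 pairs (2.74%) lay in opposite directions in this way, against 4.22% of 36606 pairs over all genes. In Astro it was 7 of 93 members (7.53%) against 5.34% of genes, and in each of the other 6 shared types the share of members was below that of all genes.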

How the results depend on the processing

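Main values and their alternatives are given as counts of members called. Without the low-count filter the genotype comparison called 3 in PFC types and 3 in subtypes (0 with the filter), the genotype by tissue test 1 (0) and PFC against striatum 29 (17). The replicate block called 1, 2 and 47 in PFC types, subtypes and PFC against striatum and changed no other call count beyond 1.5 times. Scaling to total UMIs called 62 members in PFC neurons against non-neuronal cells (59 higher and 3 lower, 38 with TMM), 41 in Oligo against OPC in the PFC (23) and 47 in the striatum (22), and RLE size factors 1 in IN against EN (3). With DESeq2 45.0% of all striatal calls between neurons and non-neuronal cells were higher in neurons, against 55.6%. Leaving out 1 library gave 0 to 13 genotype calls in PFC types, 0 to 16 in subtypes, 0 to 2 in the striatum and 0 to 0 for genotype by tissue. It gave 5 to 24 for PFC against striatum, 36 to 40 and 44 to 49 for neurons in the PFC and striatum, 2 to 4 for IN against EN, 2 to 3 for IN against MSNs, 0 to 0 for D1 against D2, and 21 to 24 and 20 to 25 for Oligo against OPC. A type with 1 library left in an arm was assumed to vary like the other arm. The neuronal minus non-neuronal mitochondrial share in the PFC was -0.283 points as a mean over cells and -0.294 in cells with at most 5% mitochondrial UMIs (-0.442 as reported), and -0.261 in such cells of the striatum (-0.716). The nuclear difference in the PFC was 1.83 and 2.13 (2.01). Without 1 library these shares ran from -0.492 to -0.389 and from -0.796 to -0.673 for mitochondrial members and from 1.98 to 2.06 and 2.15 to 2.25 for nuclear members. The 5% limit kept 5419 of 8997 PFC and 9084 of 14690 striatal cells. The medians of the nuclear members in Oligo against OPC turned from 0.11 in both tissues to -0.45 and -0.55 with total UMIs, and in the striatum to -0.02 with DESeq2 and -0.01 with RLE size factors. None of the named genes recomputed under the alternatives changed sign. The cause of these changes was not tested. Cell numbers were small in striatal NFO (22 in the smallest library), striatal Micro (24), striatal Astro (31) and DL-Pou3f1 (7).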
